A study of Mus musculus with 18 samples.

Results

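Polycomb repressive complex 2 (PRC2) is the enzyme that methylates lysine 27 of histone H3, a mark of silenced genes. The genes described here are 10 of its subunits, chosen by name from the count table: the catalytic subunits Ezh1 and Ezh2, the core subunits Eed, Suz12 and Rbbp7, and the accessory subunits Mtf2, Phf1, Phf19, Jarid2 and Aebp2. All 10 were found once among the 35275 genes of the table, and all 10 passed the filter on low counts, which kept 15207 genes.

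Gene expression was measured by RNA-seq in 18 libraries from cell lines of mouse malignant peripheral nerve sheath tumors (MPNSTs), a sarcoma of the nerve sheath. By their labels, 3 of the 6 lines carried deletions of Nf1 and p53 (Nf1-/-;p53-/-, Nf1/p53 dKO) and 3 carried deletions of Nf1 and Cdkn2a (Nf1-/-;Cdkn2a-/-, Nf1/Cdkn2a dKO), and each line was plated as 3 cultures and grown without treatment. Each line came from a separate tumor, raised in a wild-type 129 Sv/Jae mouse by injecting the sciatic nerve with an adenovirus that carried Cas9 under a CMV promoter and guides against Nf1 together with p53 or with p16 and p19, the products of Cdkn2a. Because both groups carry the Nf1 deletion, the comparison is between the second deletions, no line had Nf1 intact, and a virus under a general promoter does not fix the cell type in which a tumor began. The age of the mice was not given in the sources used here.

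PRC2 works as a core to which accessory proteins bind in 2 mutually exclusive sets. Ezh1 or Ezh2 carries the methyltransferase activity, Eed binds the methyl mark, Suz12 holds the complex together, and Rbbp4 or Rbbp7 binds histones. The set named PRC2.1 contains a Polycomb-like protein (Mtf2, Phf1 or Phf19), which binds CpG-rich DNA, and the set named PRC2.2 contains Jarid2 and Aebp2. In human MPNST, SUZ12 or EED is often lost together with NF1 and CDKN2A, and SUZ12 lies near NF1 on the same chromosome.

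In Ezh2, Mtf2 and Rbbp7, every Nf1/Cdkn2a dKO line was below every Nf1/p53 dKO line, and the promoters of these genes are shown for that reason. The stretches below are the 250 bases before the RefSeq transcription start, 5′ to 3′ on the gene's strand, from RefSeq on build GRCm38.p6, which has an entry for all 10 genes. They lie at chr6:47595031-47595280 on the minus strand for Ezh2, at chr5:108065424-108065673 on the plus strand for the first Mtf2 start, and at chrX:162760122-162760371 on the plus strand for Rbbp7. Capitals mark CCAAT boxes (CCAAT, or ATTGG on the other strand) and GC boxes (GGGCGG, or CCGCCC on the other strand), and no 2 of these matches overlapped.
Ezh2: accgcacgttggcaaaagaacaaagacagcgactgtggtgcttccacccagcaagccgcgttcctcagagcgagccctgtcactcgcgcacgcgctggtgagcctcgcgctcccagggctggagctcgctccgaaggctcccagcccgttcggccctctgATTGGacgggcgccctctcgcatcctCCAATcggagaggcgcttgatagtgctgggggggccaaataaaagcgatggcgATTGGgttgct
Mtf2: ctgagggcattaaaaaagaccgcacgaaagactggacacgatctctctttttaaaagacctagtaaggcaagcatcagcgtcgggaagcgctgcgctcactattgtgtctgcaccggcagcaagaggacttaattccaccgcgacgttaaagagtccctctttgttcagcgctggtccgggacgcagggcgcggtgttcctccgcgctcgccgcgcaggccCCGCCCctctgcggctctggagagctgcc
Rbbp7: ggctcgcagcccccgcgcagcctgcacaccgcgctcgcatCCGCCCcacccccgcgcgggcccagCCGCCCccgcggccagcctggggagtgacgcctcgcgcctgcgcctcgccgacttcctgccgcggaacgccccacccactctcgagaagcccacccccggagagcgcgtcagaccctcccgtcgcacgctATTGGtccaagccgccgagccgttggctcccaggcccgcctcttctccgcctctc

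The Ezh2 stretch held 3 CCAAT boxes and no GC box, Mtf2 had 1 GC box, and Rbbp7 had 1 CCAAT box and 2 GC boxes. A CCAAT box was found in 33.8% and a GC box in 32.7% of all 32851 promoter stretches of the same length, and the matches describe letters only. The stretch of Rbbp7 was 76.4% G and C, that of Ezh2 63.6% and that of Mtf2 59.2%, against a median of 52.4% over all promoters. Matches to the E2F site (TTTCCCGC, TTTGGCGC, TTTCGCGC or TTTGCCGC on either strand), found in 1.86% of all promoters, occurred in the stretches of Suz12 and Phf19 among the 10 genes. The cell-cycle element CHR (TTTGAA on either strand), found in 16.0% of all promoters, occurred in Aebp2, Eed, Mtf2 and Suz12. For Aebp2 it was only at start 3 in map order, and for Mtf2 only at a second start downstream of the stretch shown, which also held a CCAAT box. The 10 genes had 14 stretches, and a gene was counted if any of its stretches matched, whereas the shares of all promoters are per stretch.

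The labels were checked against the targeted genes first. Levels are given in CPM, counts scaled to library size by the TMM method, on the counts of a line summed over its 3 cultures. Trp53, which encodes p53, was at 94.1, 67.5 and 58.7 CPM in Nf1/p53 dKO lines 1, 2 and 3 and at 247, 246 and 185 CPM in Nf1/Cdkn2a dKO lines 1, 2 and 3. It was lower in every line labelled Nf1/p53 dKO and was called different (log2 fold change 1.62, Nf1/Cdkn2a dKO over Nf1/p53 dKO, SE 0.23, adjusted p = 0.0361 by edgeR's quasi-likelihood test), a call lost without Nf1/Cdkn2a dKO line 1 and with the line number as a block, where 0 of all genes were called. Cdkn2a was at 363, 279 and 42.9 CPM in the lines labelled Nf1/p53 dKO and at 169, 392 and 285 CPM in the lines labelled Nf1/Cdkn2a dKO, so its level did not follow the label. A short edit need not lower a transcript's count, so that this level checks nothing, and the lines are named by their labels throughout. The labels give the cells as mesenchymal. The 11 fibroblast and mesenchymal markers summed to 8507 to 17901 CPM in a line, of which Vim alone was 4727 to 10207 CPM. In the Nf1/Cdkn2a dKO, 3 of the 11 were higher and 2 lower without overlap of lines, beside 14.8% and 16.6% of all genes. The 2 lower were Dcn (3.40 to 6.59 CPM against 104 to 934 CPM) and Lum (at most 0.0433 CPM against 1.41 to 65.4 CPM). The 8 Schwann cell markers summed to 1.35 to 72.4 CPM, with Sox10 at no more than 7 counts in any line. The 8 macrophage and leukocyte markers summed to at most 8.28 CPM and the 5 endothelial markers to at most 2.02 CPM in any line. The 7 muscle markers summed to 53.2, 28.2 and 320 CPM in the lines labelled Nf1/p53 dKO and to at most 1.91 CPM in the lines labelled Nf1/Cdkn2a dKO, and the part of muscle-like cells in the levels of the PRC2 genes was not tested. Of these marker lists, Dcn, Tek and Myf5 were called, all lower in the Nf1/Cdkn2a dKO. Tek (4 to 5 counts in an Nf1/Cdkn2a dKO line) and Myf5 (0 to 1) passed the filter only through the Nf1/p53 dKO lines.

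Over all 10 subunits, none was called as different between the genotypes, and fitted log2 fold changes ranged from -1.22 (Phf19) to 0.13 (Aebp2). The comparison asked whether PRC2 genes differed between lines labelled with a p53 deletion and lines labelled with a Cdkn2a deletion, with the line as the replicate (3 against 3). At an adjusted p under 0.05, edgeR's quasi-likelihood test called 0 of the 10 genes, where 1.8% of all genes tested were called, 0.638% upward and 1.16% downward in the Nf1/Cdkn2a dKO. At an unadjusted p under 0.05, 3 of the 10 passed (Ezh2, Mtf2 and Phf19), all lower in the Nf1/Cdkn2a dKO, beside 12.5% of all genes lower by that measure. DESeq2 on the 6 lines also called 0. The fitted log2 fold change (Nf1/Cdkn2a dKO over Nf1/p53 dKO) was below 0 for 6 of the 10 (for all 10 with raw total counts, a scaling that moved the median of all genes by -0.13) and had a median of -0.17, against a median of -0.02 and 51.8% below 0 over all genes tested. Lines of the 2 genotypes stayed apart for 3 of the 10, all 3 lower in the Nf1/Cdkn2a dKO, where 16.6% of all genes were lower and 14.8% higher without overlap.

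**Figure D1:**
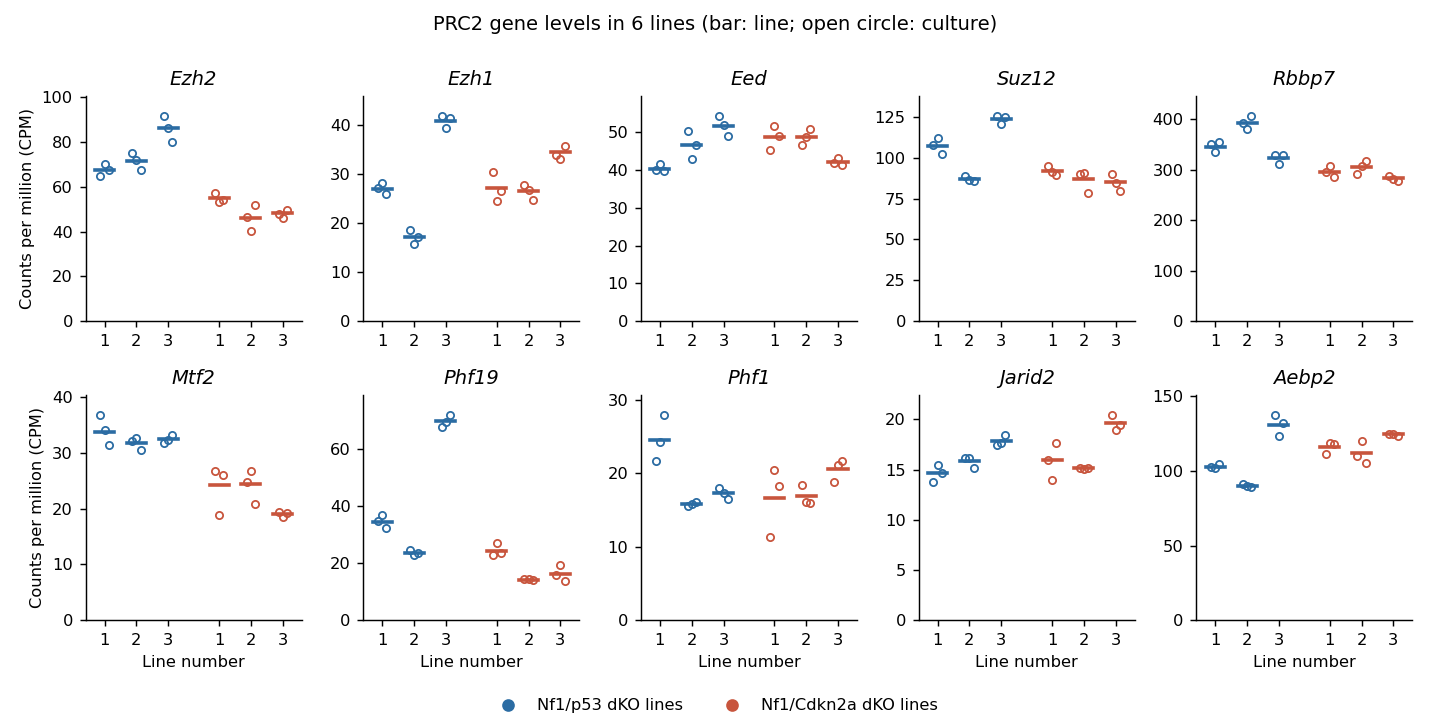
CPM of each PRC2 gene (y axes start at 0) by line number, with Nf1/p53 dKO lines in blue and Nf1/Cdkn2a dKO lines in red; bars give the line and open circles its 3 cultures. Ezh2, Mtf2 and Rbbp7 were lower in each of the 3 Nf1/Cdkn2a dKO lines than in any Nf1/p53 dKO line, and Phf19 was highest at 69.7 CPM in Nf1/p53 dKO line 3.

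The catalytic subunits differed in pattern. Ezh2, the main methyltransferase of dividing cells, was at 67.5, 71.7 and 86.1 CPM in Nf1/p53 dKO lines 1, 2 and 3 and at 55.0, 46.3 and 48.2 CPM in Nf1/Cdkn2a dKO lines 1, 2 and 3. Every Nf1/Cdkn2a dKO line was below every Nf1/p53 dKO line. The means were 75.1 ± 9.79 and 49.8 ± 4.57 CPM (SD, n = 3 lines each), a ratio of 0.664. The fitted log2 fold change was -0.59 (SE 0.15, 95% interval -0.95 to -0.23) and did not pass the threshold in edgeR (adjusted p = 0.0921). With each line left out in turn it ranged from -0.66 to -0.48. In these bulk libraries, fewer cells that express a gene and less of its RNA per cell cannot be told apart. The 18 cultures were separated as the lines were: the highest of the 9 Nf1/Cdkn2a dKO cultures was at 57.1 CPM and the lowest of the 9 Nf1/p53 dKO cultures at 64.9 CPM.

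Ezh1, the methyltransferase more typical of resting cells, was at 27.02, 17.2 and 40.8 CPM in the lines labelled Nf1/p53 dKO and at 27.2, 26.7 and 34.4 CPM in the lines labelled Nf1/Cdkn2a dKO. The Nf1/p53 dKO lines held both the highest and the lowest level, so that the genotypes overlapped. The means were 28.3 ± 11.9 and 29.4 ± 4.34 CPM (SD, n = 3 lines each), and the log2 fold change was 0.05 with an interval of -0.72 to 0.83, which leaves room for a difference as large as that of Ezh2 in either direction.

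Genes of proliferating cells were set beside Ezh2 because its level is known to follow cell division. The 20 proliferation genes summed to 3715, 3745 and 5339.8 CPM in Nf1/p53 dKO lines 1, 2 and 3 and to 3672, 3100.3 and 3289.6 CPM in the lines labelled Nf1/Cdkn2a dKO. None of the 20 was called, where 1.8% of all genes were (lowest Ccna2 at -0.73, highest Rrm2 at 0.17 on the log2 scale). A fitted log2 fold change below 0 was found for 18 of the 20, beside 51.8% of all genes. The median of the 20 was -0.34, against -0.02 over all genes. Lines of the 2 genotypes stayed apart for 8 of the 20 as lower in the Nf1/Cdkn2a dKO and for 0 as higher. Over all genes these shares were 16.6% and 14.8%. Nf1/p53 dKO line 3 held the highest sum and also the highest level of 6 of the 10 PRC2 genes (Eed, Suz12, Ezh1, Ezh2, Phf19 and Aebp2). The part of proliferation in the levels of the PRC2 genes was not tested.

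Among the core subunits other than the catalytic Ezh1 and Ezh2, only Rbbp7 separated the lines of the genotypes. Rbbp7, a histone-binding protein that other chromatin complexes share, was at 344, 392 and 323 CPM in Nf1/p53 dKO lines 1, 2 and 3 and at 295, 305 and 283 CPM in Nf1/Cdkn2a dKO lines 1, 2 and 3. The lines did not overlap, but their cultures did: the highest Nf1/Cdkn2a dKO culture was at 316.9 CPM and the lowest Nf1/p53 dKO culture at 311 CPM. Its log2 fold change was -0.26 (SE 0.14, 95% interval -0.59 to 0.07, edgeR adjusted p = 0.309), and -0.17 without Nf1/p53 dKO line 2. Rbbp4, the paralog that takes the same place and is not among the 10 genes, had a log2 fold change of -0.14 (SE 0.20, edgeR adjusted p = 0.704), with overlapping lines.

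Suz12, the scaffold of the complex, was at 107, 86.9 and 124 CPM in Nf1/p53 dKO lines 1, 2 and 3 and at 91.8, 87.1 and 85.1 CPM in Nf1/Cdkn2a dKO lines 1, 2 and 3. The Nf1/Cdkn2a dKO lines lay within 1.08-fold of each other, while the Nf1/p53 dKO lines spread 1.42-fold, with lines 1 and 3 above all Nf1/Cdkn2a dKO lines and line 2 among them. The log2 fold change was -0.27 (SE 0.16, 95% interval -0.65 to 0.11, edgeR adjusted p = 0.368). Without Nf1/p53 dKO line 3, which held the highest level, it was -0.14.

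Eed, the reader of the methyl mark, had the smallest difference of the 10 genes. Its levels were 40.3, 46.4 and 51.6 CPM in the lines labelled Nf1/p53 dKO and 48.6, 48.6 and 42.2 CPM in the lines labelled Nf1/Cdkn2a dKO. The log2 fold change was 0.01 with a 95% interval of -0.35 to 0.37, and no line stood far from the others. Transcripts of Eed and Suz12 were therefore present in all 6 lines, at no fewer than 2696 counts for Eed and 5442 for Suz12 in any line. Counts do not show whether the proteins were made.

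Of the Polycomb-like subunits of PRC2.1, Phf19 had the largest fitted fold change of the 10 genes and Mtf2 separated the genotypes. Phf19 was at 34.6, 23.6 and 69.7 CPM in Nf1/p53 dKO lines 1, 2 and 3 and at 24.4, 14.3 and 16.4 CPM in Nf1/Cdkn2a dKO lines 1, 2 and 3. The groups overlapped, since Nf1/Cdkn2a dKO line 1 was above Nf1/p53 dKO line 2, and Nf1/p53 dKO line 3 lay far above the rest. Its log2 fold change was -1.22 (SE 0.43, 95% interval -2.25 to -0.19, edgeR adjusted p = 0.168). Without Nf1/p53 dKO line 3 it was -0.66 (edgeR adjusted p = 0.277). The 3 cultures of that line were at 67.6, 69.6 and 71.8 CPM, and none of the other 15 cultures was above 36.8 CPM.

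Mtf2 was at 33.7, 31.7 and 32.4 CPM in Nf1/p53 dKO lines 1, 2 and 3 and at 24.2, 24.4 and 19.1 CPM in Nf1/Cdkn2a dKO lines 1, 2 and 3. The Nf1/p53 dKO lines lay within 1.06-fold of each other, all above the Nf1/Cdkn2a dKO lines. The means were 32.6 ± 1.03 and 22.5 ± 2.99 CPM (SD, n = 3 lines each), and the log2 fold change was -0.53 (SE 0.16, 95% interval -0.92 to -0.14, edgeR adjusted p = 0.125). Left-out lines moved it only between -0.59 and -0.42, and the 9 cultures of the Nf1/p53 dKO, at 30.5 CPM or more, were all above the 9 of the Nf1/Cdkn2a dKO, at 26.8 CPM or less.

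Phf1, the third Polycomb-like gene, did not follow the other two. It was at 24.6, 15.8 and 17.3 CPM in the lines labelled Nf1/p53 dKO and at 16.7, 17.0 and 20.6 CPM in the lines labelled Nf1/Cdkn2a dKO, with only Nf1/p53 dKO line 1 standing above the rest. The log2 fold change was -0.09 (SE 0.23), with a 95% interval of -0.64 to 0.46. Cultures of Nf1/Cdkn2a dKO line 1 ranged from 11.4 to 20.5 CPM, a spread within a line as wide as that among lines.

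The lines overlapped for both PRC2.2 subunits. Jarid2, which helps bring PRC2 to its targets, was at 14.6, 15.8 and 17.8 CPM in the lines labelled Nf1/p53 dKO and at 16.0, 15.2 and 19.7 CPM in the lines labelled Nf1/Cdkn2a dKO (log2 fold change 0.07, 95% interval -0.39 to 0.54). Aebp2, a zinc finger protein that stabilizes the complex, was at 102, 90.0 and 131 CPM in the lines labelled Nf1/p53 dKO and at 116, 112 and 125 CPM in the lines labelled Nf1/Cdkn2a dKO (log2 fold change 0.13, 95% interval -0.28 to 0.53, and 0.03 to 0.29 with a line left out). The highest Jarid2 was that of Nf1/Cdkn2a dKO line 3 and the highest Aebp2 that of Nf1/p53 dKO line 3.

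**Figure D2:**
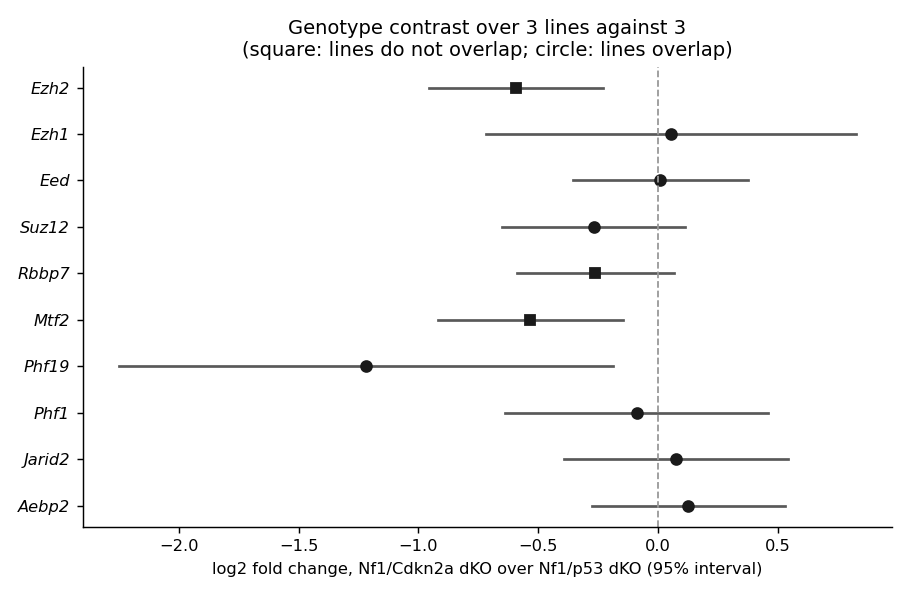
Fitted log2 fold change of each PRC2 gene (x axis; negative values are lower in the Nf1/Cdkn2a dKO) with its 95% interval, from 3 lines against 3; squares mark genes whose lines do not overlap. Only the intervals of Ezh2, Mtf2 and Phf19 exclude 0 before adjustment, and none of the 10 passed after it.

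Some of these counts share ground with other genes. Mtf2 shares 395 bases of exon with Tmed5, Phf1 1370 bases with Cuta and Rbbp7 174 bases with Txlng, in each case on the opposite strand, and whether the counting used strand is not given in the sources used here. The levels of Mtf2, Phf1 and Rbbp7 are uncertain to that extent. Tmed5 had a log2 fold change of 0.17 (SE 0.18), Cuta one of 0.28 (SE 0.17) and Txlng one of -0.22 (SE 0.23). A processed pseudogene of Rbbp7, Gm6382, is 97.1% identical to it over 942 bases and took 15 counts over all libraries, against 135389 for Rbbp7.

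Levels of different subunits were compared per length, as CPM per kb of exon. Over the 6 lines, Rbbp7 was highest at a mean of 111 ± 13.6 CPM per kb (SD, n = 6 lines), above Rbbp4 at 32.9 ± 5.86 and Suz12 at 19.6 ± 3.12. Eed (12.1 ± 1.12), Aebp2 (11.4 ± 1.5) and Ezh2 (9.35 ± 2.31) followed within the spread of the lines, each above the next in 5 of the 6 lines. Phf19 (6.05 ± 4.07), Phf1 (5.35 ± 0.95) and Mtf2 (4.84 ± 1.03) could not be ordered: Phf19 was above Phf1 in only 3 of the 6 lines. Ezh1 came next at 3.88 ± 1.08, and Jarid2 was lowest at 1.70 ± 0.19, below Ezh1 in all 6 lines. With the longest coding transcript as the length, Eed and Ezh2 were level at 22.4 CPM per kb, beside Suz12 at 22.2 and above Aebp2 at 19.0, and Ezh1 (6.87) lay beside Mtf2 (6.79), so that the order of these genes depends on the length used.

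**Figure D3:**
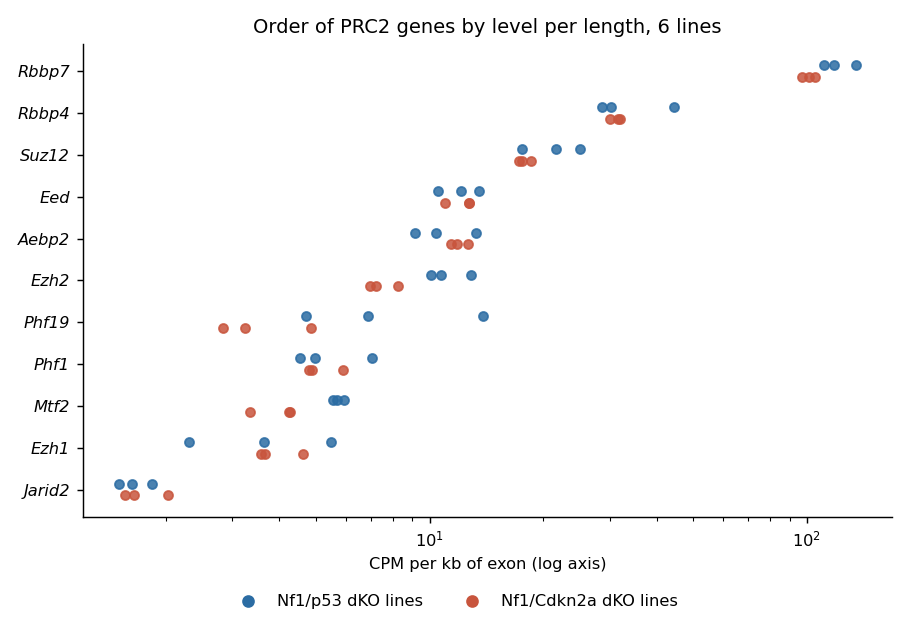
CPM per kb of exon on a log axis for the 10 PRC2 genes and Rbbp4, ordered by their mean; each point is a line, Nf1/p53 dKO in blue and Nf1/Cdkn2a dKO in red. Rbbp7 stands above all others at a mean of 111 and Jarid2 lies lowest at 1.70.

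Ratios between subunits were taken within each line, which removes the scaling of the library. The ratio of Ezh1 to Ezh2 per kb was 0.359, 0.215 and 0.426 in Nf1/p53 dKO lines 1, 2 and 3 and 0.444, 0.517 and 0.641 in Nf1/Cdkn2a dKO lines 1, 2 and 3. Every Nf1/Cdkn2a dKO line was above every Nf1/p53 dKO line, with Nf1/p53 dKO line 3 and Nf1/Cdkn2a dKO line 1 close together. Ezh2 exceeded Ezh1 in all 6 lines. The difference was 0.72 on the log2 scale, with an exact two-sided permutation p of 0.1, the smallest that 3 lines against 3 can give. Without Nf1/p53 dKO line 2, which had the lowest ratio, the difference was 0.43.

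The summed Polycomb-like genes (Mtf2, Phf1 and Phf19) stood to the summed PRC2.2 genes (Jarid2 and Aebp2) at 1.67, 1.37 and 1.62 in Nf1/p53 dKO lines 1, 2 and 3 and at 1.03, 0.926 and 0.852 in Nf1/Cdkn2a dKO lines 1, 2 and 3. The lines did not overlap, and the log2 difference was -0.73 (exact two-sided permutation p = 0.1, again the smallest possible). It lay between -0.82 and -0.66 with any line left out, Nf1/p53 dKO line 3 with its high Phf19 included. Aebp2 was the larger term of the PRC2.2 sum, at a mean of 11.4 CPM per kb beside 1.70 for Jarid2, so this ratio leans on it. Epop, a PRC2.1 subunit that was higher in every Nf1/Cdkn2a dKO line, was not in the Polycomb-like sum. The ratio of accessory to core genes, with the core taken as Eed, Suz12, Ezh1, Ezh2 and Rbbp7, did not separate the genotypes. Rbbp7 was the largest term of that core, at a mean of 111 CPM per kb beside 19.6 for Suz12, so the ratio leans on it. The ratio was 0.193, 0.144 and 0.236 in the lines labelled Nf1/p53 dKO and 0.189, 0.171 and 0.198 in those labelled Nf1/Cdkn2a dKO (log2 difference -0.01, exact two-sided permutation p = 0.9). These 3 ratios rest on genes whose levels were known to differ or not when the ratios were chosen.

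**Figure D4:**
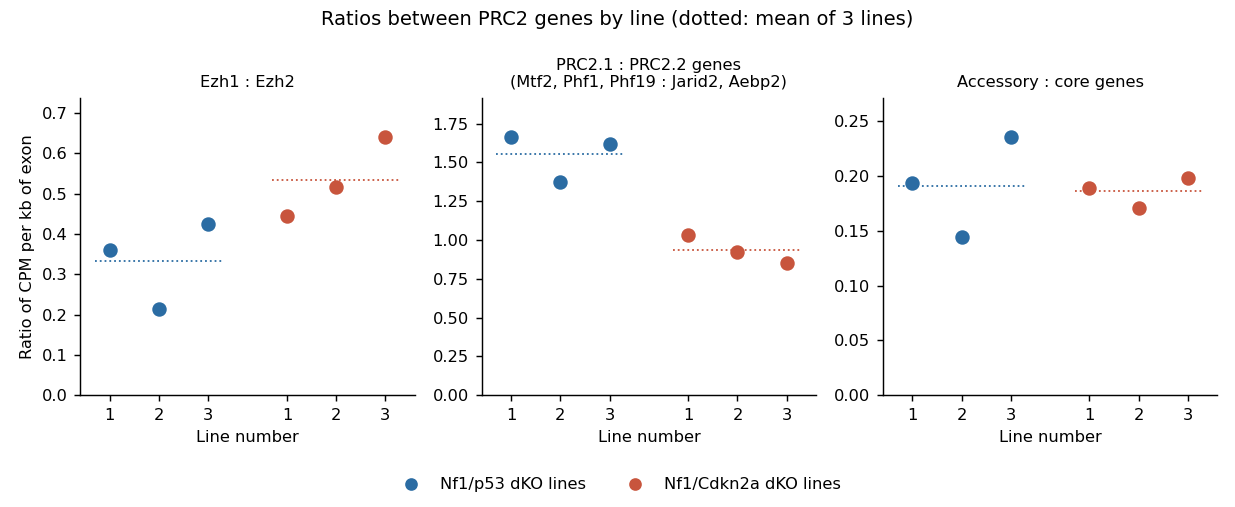
Ratios of CPM per kb of exon (y axes start at 0) for each line, Nf1/p53 dKO in blue and Nf1/Cdkn2a dKO in red, with dotted lines at the mean of 3 lines. The first ratio is 0.444 or more in the Nf1/Cdkn2a dKO and 0.426 or less in the Nf1/p53 dKO, the second is 1.37 or more in the Nf1/p53 dKO and 1.03 or less in the Nf1/Cdkn2a dKO, and the third overlaps.

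Lines of the same genotype differed from each other in most of the PRC2 genes. Against the spread of their cultures, 9 of the 10 genes differed among the Nf1/p53 dKO lines (all but Mtf2), where 73.2% of all genes did, and 6 of the 10 differed among the Nf1/Cdkn2a dKO lines (Eed, Ezh1, Ezh2, Jarid2, Mtf2 and Phf19), where 56.8% did (edgeR's quasi-likelihood F-test, adjusted p under 0.05, 14690 genes tested). Cultures are repeat platings of a line, so this test speaks of these lines only. Phf19 varied most, 2.95-fold among the Nf1/p53 dKO lines and 1.71-fold among the Nf1/Cdkn2a dKO lines. Ezh1 followed with 2.38-fold among the Nf1/p53 dKO lines, and Mtf2 varied least there, at 1.06-fold. The Nf1/p53 dKO lines had the wider range for 8 of the 10 genes, as they did for 60.9% of all genes tested. Nf1/p53 dKO line 3 held the highest level of 6 of the 10 genes (Eed, Suz12, Ezh1, Ezh2, Phf19 and Aebp2), where it held the highest level of 25.9% of all genes.

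If the cultures were taken as separate samples, which counts each line 3 times, edgeR called 5 of the 10 genes as lower in the Nf1/Cdkn2a dKO (Suz12, Ezh2, Mtf2, Phf19 and Rbbp7), where 24.7% of all genes were lower. With the line as a random effect, limma-voom called Ezh2 and Phf19 as lower, where 7.84% of all genes were. No gene among the 10 was called as higher in either fit.

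Suz12 lies on chromosome 11, as does the targeted Nf1, and starts 411 kb after the end of Nf1. Nf1 itself was at 70.0, 33.5 and 27.7 CPM in Nf1/p53 dKO lines 1, 2 and 3 and at 12.7, 38.3 and 16.2 CPM in Nf1/Cdkn2a dKO lines 1, 2 and 3. Its levels overlapped between the genotypes. The line lowest in Nf1, at 12.7 CPM, had Suz12 at 91.8 CPM. The next lowest, at 16.2 CPM, had the lowest Suz12, at 85.1 CPM, and the highest, at 70.0 CPM, had Suz12 at 107 CPM. The highest Suz12, at 124 CPM, was that of Nf1/p53 dKO line 3, where Nf1 was at 27.7 CPM. The lines with Nf1 at 33.5 and 38.3 CPM had Suz12 at 86.9 and 87.1 CPM. Whether Suz12 followed Nf1 over the lines was not tested. The only gene between them that passed the filter was Utp6, which encodes a protein of ribosome assembly. Utp6 was at 107, 140 and 122 CPM in the lines labelled Nf1/p53 dKO and at 98.4, 87.0 and 79.4 CPM in the lines labelled Nf1/Cdkn2a dKO, without overlap, and was not called (log2 fold change -0.48, SE 0.16, edgeR adjusted p = 0.143). Evi2a, a gene inside Nf1 on the other strand, was at 10.5, 12.1 and 29.6 CPM in the lines labelled Nf1/p53 dKO and at 14.9, 9.32 and 10.1 CPM in the lines labelled Nf1/Cdkn2a dKO.

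Neighbors on the chromosome were set beside the members, with no test. Of the 19 genes tested within 1 Mb (1000 kb) of Suz12, 0 were called, where 1.8% of all genes were. Of these 19, 12 had a log2 fold change below 0, beside 51.8% of all genes, and the median of the 19 was -0.17. The same count was 31 of 44 near Phf1 and 9 of 13 near Eed. It was 8 of 18 near Ezh2, 10 of 23 near Mtf2 and 7 of 20 near Phf19. In Nf1/p53 dKO line 3 Suz12 was 0.37 above its mean over 6 lines on the log2 scale, and its neighbors were 0.19 above theirs at the median. The lowest median of these neighbors in any line was -0.10 and the lowest Suz12 -0.17, both in Nf1/Cdkn2a dKO line 3. Within 500 kb that neighbor median was -0.16, and the median log2 fold change of the 16 neighbors was -0.10. For Ezh2 the 18 neighbors had a median log2 fold change of 0.11, for Mtf2 the 23 neighbors 0.04, and for Phf19 the 20 neighbors 0.12, against -0.02 over all genes (within 500 kb of Ezh2 the median was -0.07). Phf19 in Nf1/p53 dKO line 3 was 1.41 above its mean, while the median of its neighbors was -0.0004 from theirs.

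**Figure D5:**
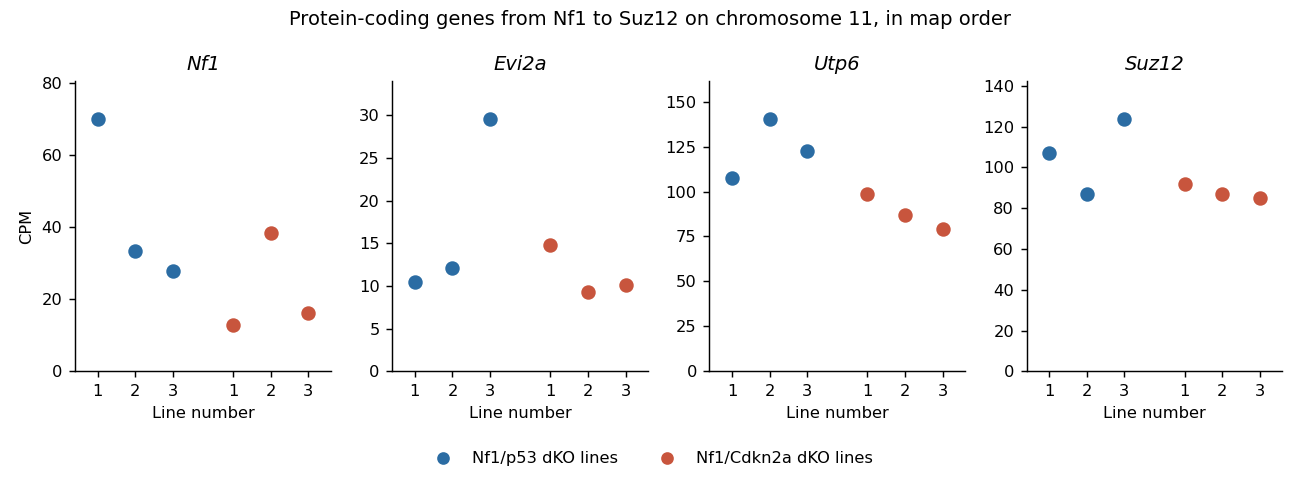
CPM by line (y axes start at 0) of the protein-coding genes tested from Nf1 to Suz12 on chromosome 11, in map order, Nf1/p53 dKO in blue and Nf1/Cdkn2a dKO in red. Nf1 ranges from 12.7 to 70.0 CPM and Suz12 from 85.1 to 124 CPM.

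Other parts of the Polycomb system were counted in the same way. Of 4 further PRC2 subunits tested, 0 were called, and 2 (Epop and Lcor) were higher without overlap in the Nf1/Cdkn2a dKO, as were 14.8% of all genes. Epop, an accessory subunit of PRC2.1, was at 2.60, 6.48 and 6.37 CPM in the lines labelled Nf1/p53 dKO and at 11.8, 18.6 and 7.99 CPM in the lines labelled Nf1/Cdkn2a dKO. Epop thus lay opposite to Mtf2 (log2 fold change 1.31, SE 0.47, edgeR adjusted p = 0.172). Lcor was at 6.34, 6.39 and 8.09 CPM in the lines labelled Nf1/p53 dKO and at 12.8, 8.50 and 12.1 CPM in the lines labelled Nf1/Cdkn2a dKO (log2 fold change 0.68, SE 0.26, edgeR adjusted p = 0.191). Of 25 genes of PRC1, the complex that binds the PRC2 mark and ubiquitinates histone H2A, 0 were called, 7 of 25 were above and 5 of 25 below the Nf1/p53 dKO in every Nf1/Cdkn2a dKO line (14.8% and 16.6% of all genes), and the median log2 fold change was 0.25. The extremes were Pcgf1 (0.70, SE 0.20, edgeR adjusted p = 0.111) and Scml2 (-1.54, SE 0.38, edgeR adjusted p = 0.0864). The 25 genes summed to 989.8 to 1013 CPM in the lines labelled Nf1/p53 dKO and to 1128 to 1166 CPM in the lines labelled Nf1/Cdkn2a dKO. The 10 PRC2 genes summed to 796, 791 and 893 CPM in the former and to 715, 697 and 693 CPM in the latter. Neither sum is per length, and genes with many counts weigh most: Rbbp7 alone averaged 353 CPM in the Nf1/p53 dKO and 295 CPM in the Nf1/Cdkn2a dKO. Of the PRC1 genes, 11 had a log2 fold change below 0, and of the 10 PRC2 genes, 4 had one above 0.

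Of the 10 genes of PR-DUB, which removes the mark that PRC1 sets, 0 were called, and the lowest was its enzyme Bap1 (log2 fold change -0.65, SE 0.18, edgeR adjusted p = 0.107) and the highest Foxk2 (0.27). Bap1 was at 111, 71.5 and 93.3 CPM in the lines labelled Nf1/p53 dKO and at 58.7, 58.9 and 58.2 CPM in the lines labelled Nf1/Cdkn2a dKO, without overlap. Among the 9 enzymes of lysine 27 and lysine 36 of histone H3, 0 were called, and the lowest was Ash1l, a lysine 36 methyltransferase, at 142, 173 and 162 CPM against 107, 93.5 and 102 CPM (log2 fold change -0.66, SE 0.14, edgeR adjusted p = 0.0616). The highest was Crebbp, a lysine 27 acetyltransferase (0.28). The 20 trithorax and SWI/SNF genes, which oppose Polycomb, likewise had 0 called, with Smarcd1 lowest (-0.74) and Smarca2 highest (0.69).

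Genes that textbooks give as silenced by PRC2 were also counted. Of 46 such developmental regulators, 17 passed the filter, 15 had at most 3 counts in every line, and 3 of the 17 were called, 1 of them upward and 2 downward in the Nf1/Cdkn2a dKO, beside 1.8% of all genes called. Genes near 0 in 1 genotype entered only through the other, so the share called among the 17 supports nothing, and over all genes 0 were called without Nf1/Cdkn2a dKO line 1 or with the line number as a block and 2 without Nf1/Cdkn2a dKO line 2. Foxf1, a forkhead factor, was at 16.1, 3.72 and 15.9 CPM in the lines labelled Nf1/p53 dKO and at 100.3, 139 and 131 CPM in the lines labelled Nf1/Cdkn2a dKO (log2 fold change 3.38, edgeR adjusted p = 0.0465). Six2, a homeobox factor, was at 29.0, 9.46 and 32.7 CPM against 0, 0 and 0.219 CPM, where 0 can stand for as many as 3 counts, and passed the filter only through the Nf1/p53 dKO lines. The lines also differed in muscle markers, of which Myf5 was called lower (28.0, 24.2 and 27.7 CPM against 0, 0 and 0.0156 CPM, edgeR adjusted p = 0.00672). Myf5 too passed the filter only through the Nf1/p53 dKO lines, so its call supports nothing. Whether any of these genes carried the PRC2 mark was not measured.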

How the data were processed

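RNA-seq was performed on 18 libraries, 3 cultures of each of 3 lines per genotype, and libraries were prepared by a company. The submitters' processing notes name CASAVA, STAR 2.5, DESeq2 1.14.1 and build GRCm38, without saying which step each did. The authors deposited raw, unnormalized counts of reads for each gene in each library. The counting tool, its strand setting and the annotation are not given in the sources used here. Total counts were 19560535 to 28312207 per library and 65206479 to 73065228 per line. Groups came from the sample titles. In every pair of cultures from the same line the counts differed beyond sampling noise (chi-square per degree of freedom 3.57 or more).

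The 3 cultures of a line were added up. Genes were filtered by filterByExpr, with a minimum count of 10 and a minimum total of 15, and TMM factors were applied. Genotypes were compared in R 4.3.3 by the quasi-likelihood test of edgeR 4.0.16, beside DESeq2 1.42.0 and limma 3.58.1 as alternatives, with Benjamini-Hochberg adjustment over all genes tested, at 0.05. DESeq2 is the study's own tool. P-values measure the spread between lines. Exon lengths and positions came from GENCODE M21, matched by identifier for 34490 of 35275 genes, and deviations of a line were taken on log2(CPM + 0.1). The scripts were tested on simulated data.

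Named genes were the 10 members, the called, highest and lowest genes of each other list, the targeted genes and the genes between Nf1 and Suz12. Evi2a, Sox10, Vim, Lcor and the genes that overlap members were named after their values were seen. The members and lists were chosen with earlier results of these data known. The alternatives were DESeq2, the 18 cultures as samples in edgeR or limma-voom, RLE size factors, raw totals, other filters, the line number as a block, other gene lengths, a window of 500 kb and each line left out. No batch is given in the labels. Some genes of the list of textbook PRC2 targets are counted in it but not reported singly here.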

Additional observations from a re-analysis of the deposited data

How the results depend on the processing

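None of the 10 PRC2 genes was called by edgeR on the 6 lines under RLE size factors, raw totals, either filter, the line number as a block, or with any line left out, or by DESeq2, whereas 5 were called with the 18 cultures as separate samples and 2 with limma-voom and the line as a random effect. Ezh2, Mtf2, Phf19, Rbbp7 and Suz12 kept a log2 fold change below 0 under all 14 alternatives. Over all genes, 274 were called, against 2055 with DESeq2, 6096 with the cultures as samples, 2173 with limma-voom and 423 with raw totals, and 0 to 172 with a line left out, the 0 being without Nf1/Cdkn2a dKO line 1. Raw totals moved the median of all genes by -0.13 on the log2 scale, and Eed (-0.12), Ezh1 (-0.088), Jarid2 (-0.062) and Aebp2 (-0.011) then changed sign. Eed also turned to -0.0029 with limma-voom and -0.0040 with at least 10 counts in every line, and with left-out lines it ranged from -0.077 to 0.10, Phf1 from -0.20 to 0.13, Ezh1 from -0.19 to 0.42, Jarid2 from -0.040 to 0.16, Aebp2 from 0.03 to 0.29 and Rbbp7 from -0.32 to -0.17. The ratio of accessory to core genes, near 0, turned to 0.028 with the longest coding transcript and 0.11 without division by length, and ranged from -0.20 to 0.15 with left-out lines. Line numbers did not pair the samples (correlations of deviations -0.10, -0.13 and -0.08), and the fit with the line number as a replicate block called 0 of all genes (2878 at an unadjusted p under 0.05) and 0 of the 10. Genes differing among the lines of a genotype numbered 8 to 9 of 10 in the Nf1/p53 dKO and 4 to 6 in the Nf1/Cdkn2a dKO over the other settings. A 500 kb window moved the median of the neighbors of Suz12 to -0.10 and turned that of Ezh2 to -0.07. The smallest member count was 990 in a line, so counting error was small beside the spread of lines, and 3 lines per genotype set the precision.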
